A study of Rattus norvegicus with 28 samples.

Results

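The genes described here encode the enzymes that bring pyruvate into the mitochondrion's metabolism, turn the citric acid cycle, oxidise ketone bodies and break down the branched-chain amino acids leucine, isoleucine and valine. The list holds 39 genes, and a gene was measured where an array probe carried its symbol alone. This gave 31 of the 39, among 11493 genes tested. Mpc1, Mpc2, Pdhx, Pdk2, Pdp2, Ogdh, Suclg2 and Mccc1 have no such probe and are not analysed here. By pathway, 7 of 12 listed genes of pyruvate entry and its control were measured, 8 of 10 of the citric acid cycle, 4 of 4 of the malate-aspartate shuttle, 3 of 3 of ketone body oxidation and 9 of 10 of branched-chain catabolism.

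Left ventricles of 28 male rats, killed at 7 weeks of age, were profiled on 1-colour whole transcript arrays, with 1 array per rat as labelled. Wildtype Sprague Dawley rats without treatment (SD) gave 8 arrays. Transgenic rats of the line dTGR [SD-Tg(hAGT)L1623xTg(hREN)L10J], which carry a human angiotensinogen and a human renin gene on the same background and are labelled as a hypertension-induced model of heart failure with preserved ejection fraction, gave 8 arrays after vehicle (Transcutol, Cremophor-EL and water) and 12 after BAY 41-8543, a stimulator of soluble guanylate cyclase, at 3 mg/kg/day (treated dTGR below). Rats were assigned at 3.5 weeks, and daily gavage began at the age of 4 weeks, although the series' design text gives 4 weeks of treatment. The SD rats were not gavaged as labelled, so genotype and gavage cannot be told apart in any comparison with them. Of 8 cardiomyocyte markers listed, Myh6, Tnnt2, Tnni3, Actn2 and Mybpc3 were among the genes tested, which shows that their probes gave a signal above the filter on dim probes at 5.65. Levels of different probes do not compare, so the tissue label was not checked further.

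The heart burns mainly fatty acids, with glucose, lactate, ketone bodies and branched-chain amino acids as further fuels. Pyruvate enters oxidation through the pyruvate dehydrogenase complex, which kinases switch off and phosphatases switch on, or is carboxylated to oxaloacetate by pyruvate carboxylase. Branched-chain amino acids lose their amino group to a mitochondrial transaminase, and the keto acids are then committed to oxidation by the branched-chain keto acid dehydrogenase complex, which is built like pyruvate dehydrogenase, shares its E3 subunit and is likewise held off by a kinase. Falling expression of these branched-chain genes has been described in failing hearts of mice and people.

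Levels are given as log2 of the deposited normalized intensity, and a difference of -1 on that scale is a halving of the signal. A gene was called at an adjusted p under 0.05 in the limma test, by the method of Benjamini and Hochberg across the 11493 genes. SD always means the control rats here, and ± gives the standard deviation after a level and the standard error after a difference. The arrays' first principal component over all genes, which held 19% of the variance, ran from -22.9 to -17.1 in SD, from -7.94 to 4.72 in treated dTGR and from -2.92 to 41.3 in vehicle dTGR. Among the latter, replicates 6 (-0.839) and 7 (-2.92) fell inside the range of the treated arrays, and where leaving out both changed the call of a difference given below, its value without them is given.

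Of the 31 genes, 12 were lower in vehicle dTGR than in SD and 0 were higher (1 was higher at an unadjusted p under 0.05 by the limma test). These make up 38.7% of the 31, where 23.8% of all genes tested were called either way, 11.7% lower and 12.1% higher. The 31 genes and the lists used below were chosen with earlier results of these data known, so such shares describe and do not test. The median difference over the 31 genes was -0.132, against 0.003 over all genes. In treated dTGR, 11 of the 31 were lower than in SD and 0 were higher (none of the 31 was higher at an unadjusted p under 0.05 either), with a median of -0.107 against 0.014 over all genes. Among all genes in that comparison 17.4% were called, 7.87% lower and 9.54% higher. Between treated and vehicle dTGR, 1 of the 31 was higher and 0 were lower, with a median of -0.001 against 0.01 over all genes. Of all genes, 9.79% were called there, 5.37% higher and 4.42% lower, where 1 of 31 is 3.23%. That share rests on a single gene, and the count was 3 without vehicle replicates 6 and 7 and from 0 to 2 with 1 array left out (2 without SD replicate 8, vehicle replicate 6 or 7 or treated replicate 1 or 9, and 0 without vehicle replicate 4 or 5 or treated replicate 7). An unadjusted p under 0.05 in the limma test was reached there by 3 of the 31 genes, Hibch, Pdp1 and Dlst, all with higher values after treatment, and by 0 with lower values. The comparisons share arrays: the SD arrays serve in both comparisons with dTGR and the vehicle arrays in 2 of the 3, so their values are set side by side and no overlap between them is counted as a result.

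**Figure D1:**
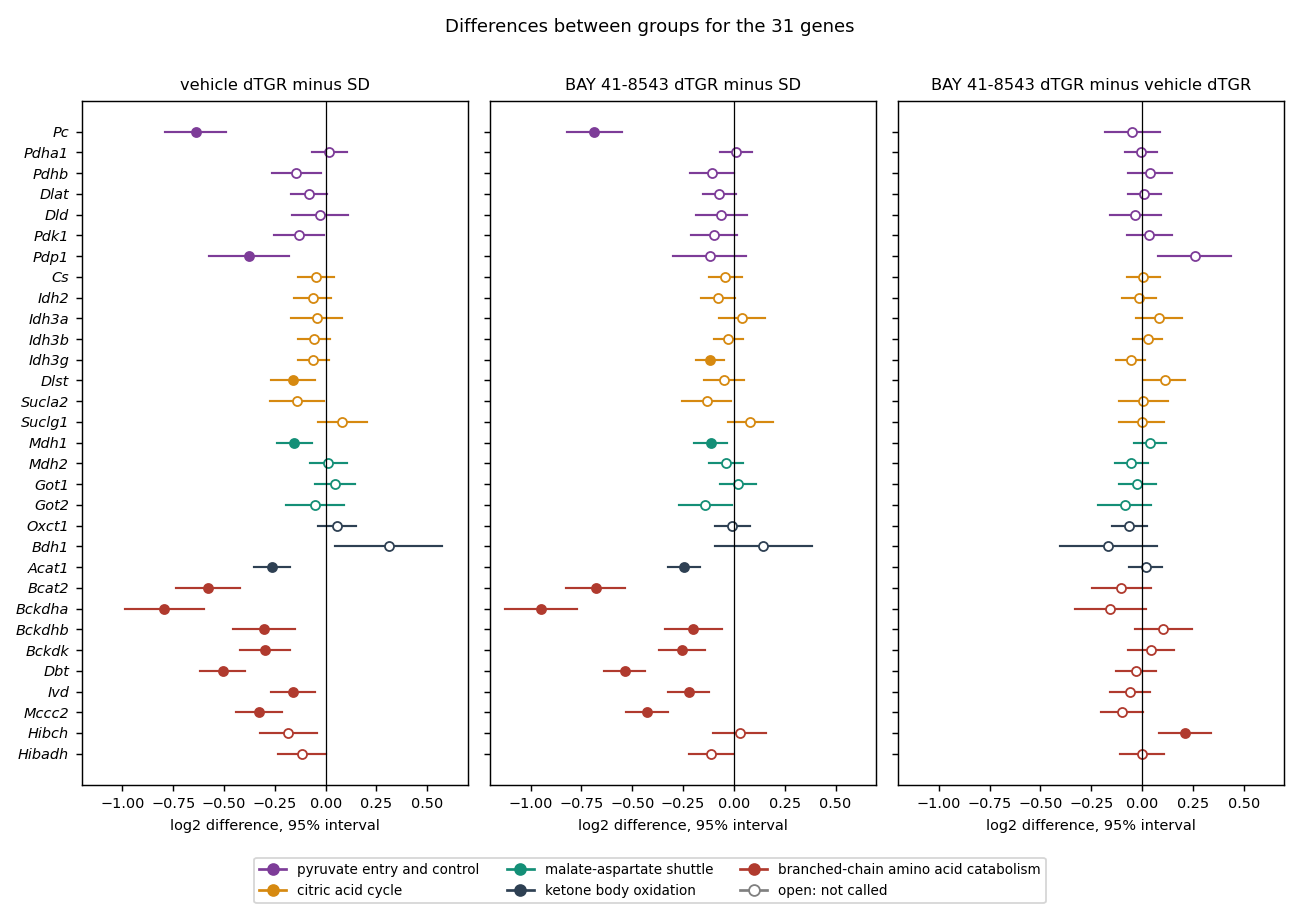
Differences between groups for the 31 genes, on the log2 scale on the horizontal axes, in 1 panel per comparison. Points are limma estimates, lines are 95% intervals, filled points are called genes and colours mark the pathway. All 9 branched-chain genes lie left of 0 in vehicle dTGR against SD and 8 of 9 in treated dTGR against SD, down to -0.79 for Bckdha in vehicle dTGR and -0.95 in treated dTGR, while in the comparison of treated with vehicle dTGR 1 point, Hibch, is filled.

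The branched-chain pathway held most of the lower genes. Of its 9 measured genes, 7 were lower in vehicle dTGR (77.8%), 0 were higher and 2 were not called, with a median difference of -0.304. In treated dTGR 7 of the 9 were lower than in SD as well, with a median of -0.255. The 22 measured genes of the other pathways had 5 lower in vehicle dTGR (22.7%), with a median of -0.059, and 4 lower in treated dTGR (18.2%). Of all genes, 11.7% were called lower in vehicle dTGR and 7.87% in treated dTGR (23.8% and 17.4% either way). Averaged over the 9 branched-chain genes, each array's level relative to the SD mean ran from -0.09 to 0.14 in SD, from -0.47 to -0.29 in vehicle dTGR and from -0.52 to -0.23 in treated dTGR. No dTGR array reached the lowest SD array on that average. Over the 7 pyruvate entry genes it ran from -0.11 to 0.09 in SD, -0.28 to -0.12 in vehicle dTGR and -0.26 to -0.07 in treated dTGR. There too every vehicle array lay below every SD array, while the treated arrays overlapped with SD. The same average over the 8 citric acid cycle genes overlapped between all groups. It ran from -0.05 to 0.06 in SD, -0.15 to 0.01 in vehicle dTGR and -0.19 to 0.04 in treated dTGR.

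**Figure D2:**
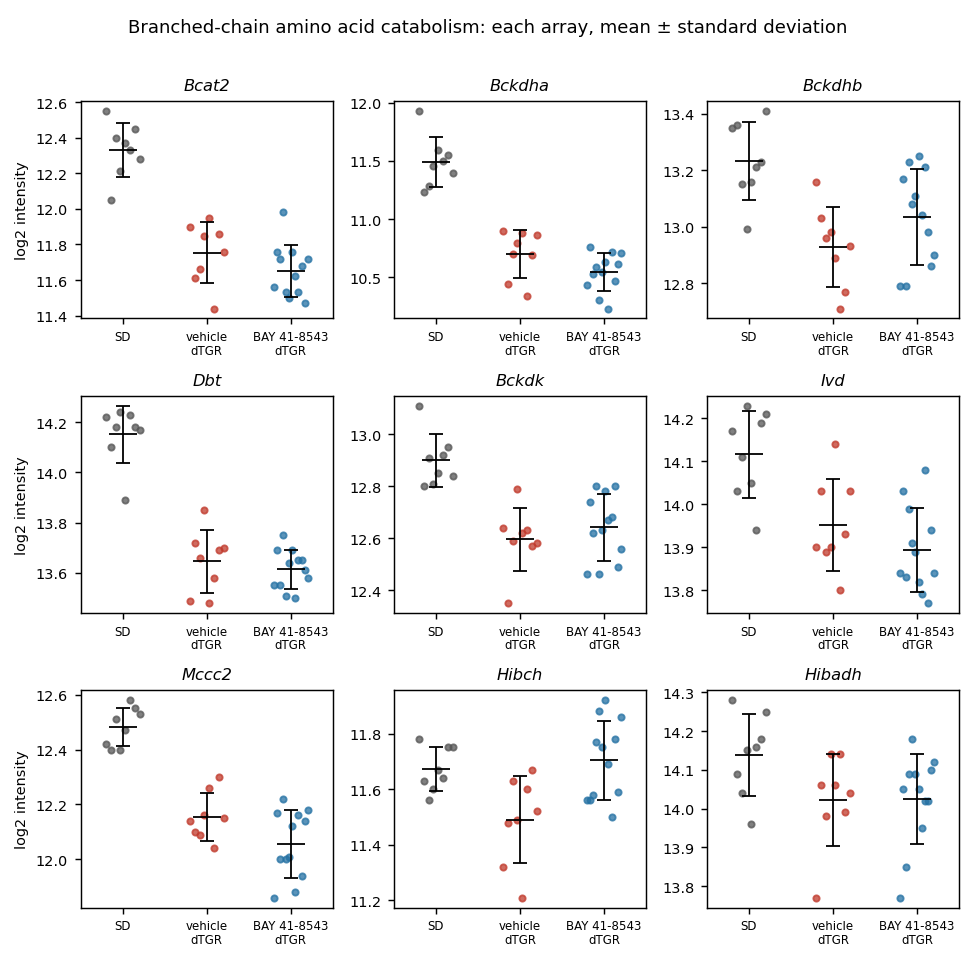
Log2 intensity (vertical axes, scaled per gene) of the 9 branched-chain genes in each array of the 3 groups, with the group mean and standard deviation as bars. Bcat2, Bckdha, Dbt and Mccc2 have every dTGR array below every SD array, while for Hibch the treated arrays (11.50 to 11.92) span the SD arrays (11.56 to 11.78).

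Bcat2 encodes the mitochondrial transaminase that takes the amino group from leucine, isoleucine and valine. Its level ran from 12.05 to 12.55 in SD (median 12.35), from 11.44 to 11.95 in vehicle dTGR (median 11.80) and from 11.47 to 11.98 in treated dTGR (median 11.65). Every dTGR array of either treatment was below every SD array, while the vehicle and treated arrays overlapped along most of their ranges. The fall was 33.0% in vehicle dTGR (log2 -0.58 ± 0.08, adjusted p = 1.45e-06) and 37.6% in treated dTGR (log2 -0.68 ± 0.07, adjusted p = 2.41e-08).

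Bckdha encodes the E1 alpha subunit of the branched-chain keto acid dehydrogenase, the subunit whose phosphorylation switches the complex off. It ran from 11.23 to 11.93 in SD (median 11.48), from 10.34 to 10.90 in vehicle dTGR (median 10.74) and from 10.23 to 10.76 in treated dTGR (median 10.57). The dTGR arrays were again all below the SD arrays, and the difference was the largest of the 31 genes in both comparisons with SD. It was 42.3% lower in vehicle dTGR (log2 -0.79 ± 0.09, adjusted p = 2.32e-07) and 48.2% lower in treated dTGR (log2 -0.95 ± 0.09, adjusted p = 2.38e-09).

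Dbt encodes the E2 core of the same complex, which carries the lipoyl arm and transfers the acyl group. It ran from 13.89 to 14.24 in SD (median 14.18), from 13.48 to 13.85 in vehicle dTGR (median 13.67) and from 13.50 to 13.75 in treated dTGR (median 13.62). No dTGR array reached the lowest SD array, and the log2 differences were -0.51 ± 0.05 (adjusted p = 3.41e-08) and -0.54 ± 0.05 (adjusted p = 2.74e-09). The lowest SD value came from replicate 5, and the other 7 SD arrays lay between 14.10 and 14.24.

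Bckdhb, the E1 beta subunit, differed less. It ran from 12.99 to 13.41 in SD (median 13.22), from 12.71 to 13.16 in vehicle dTGR (median 12.95) and from 12.79 to 13.25 in treated dTGR (median 13.06). The groups overlapped, with 6 of 8 vehicle arrays and 5 of 12 treated arrays below every SD array. The difference was -0.30 ± 0.07 in vehicle dTGR (adjusted p = 0.00261) and -0.20 ± 0.07 in treated dTGR (adjusted p = 0.0398). The second call ended when SD replicate 1, 2, 6, 7 or 8 was left out, when treated replicate 1, 3, 8, 10, 11 or 12 was, and with no intensity trend, at adjusted p from 0.0515 to 0.0971. Dld, the E3 subunit that this complex shares with pyruvate dehydrogenase and oxoglutarate dehydrogenase, was not called in either comparison (-0.03 ± 0.07 and -0.06 ± 0.06, with 95% intervals from -0.17 to 0.11 and from -0.19 to 0.07).

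Bckdk encodes the kinase that inhibits the complex, so it acts against the subunits it was measured beside. It ran from 12.80 to 13.11 in SD (median 12.88), from 12.35 to 12.79 in vehicle dTGR (median 12.61) and from 12.46 to 12.80 in treated dTGR (median 12.65). Every vehicle array was below every SD array, and 11 of 12 treated arrays were. The kinase gene was lower along with the genes of its substrate complex, by log2 -0.30 ± 0.06 (adjusted p = 0.000443) and -0.26 ± 0.06 (adjusted p = 0.00131). Ppm1k, the phosphatase that reactivates the complex, was not called (0.11 ± 0.08 in vehicle dTGR and -0.09 ± 0.07 in treated dTGR against SD). Between treated and vehicle dTGR Ppm1k differed by -0.19 ± 0.07 (adjusted p = 0.0871), and it was called without vehicle replicate 6 (-0.245, adjusted p = 0.0146) or without replicates 6 and 7 (-0.249, adjusted p = 0.015).

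Further down the leucine branch, Mccc2 and Ivd were lower, and Auh, methylglutaconyl-CoA hydratase and outside the 31 genes, was not called in vehicle dTGR (-0.10 ± 0.07, adjusted p = 0.379). In treated dTGR Auh was lower than in SD (-0.20 ± 0.07, adjusted p = 0.0328), a call lost under 9 of 38 alternatives. Mccc2, the beta subunit of methylcrotonyl-CoA carboxylase, ran from 12.40 to 12.58 in SD (median 12.49), from 12.04 to 12.30 in vehicle dTGR (median 12.15) and from 11.86 to 12.22 in treated dTGR (median 12.06). No dTGR array reached the SD range, and the differences were -0.33 ± 0.06 (adjusted p = 4.5e-05) and -0.43 ± 0.05 (adjusted p = 2.33e-07). Ivd, isovaleryl-CoA dehydrogenase, ran from 13.94 to 14.23 in SD (median 14.14), from 13.80 to 14.14 in vehicle dTGR (median 13.92) and from 13.77 to 14.08 in treated dTGR (median 13.86), with overlap between all groups. Its difference was -0.22 ± 0.05 in treated dTGR (adjusted p = 0.00126). In vehicle dTGR it was -0.16 ± 0.05 (adjusted p = 0.0247), a call that ended without SD replicate 4, SD replicate 8 or vehicle replicate 6, or without vehicle replicates 6 and 7 together, at adjusted p from 0.0515 to 0.0845. Without replicates 6 and 7 together the Ivd difference was -0.133 (adjusted p = 0.0845).

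In the valine branch, Hibch, which encodes hydroxyisobutyryl-CoA hydrolase, was the 1 gene of the 31 called between treated and vehicle dTGR. It ran from 11.56 to 11.78 in SD (median 11.66), from 11.21 to 11.67 in vehicle dTGR (median 11.50) and from 11.50 to 11.92 in treated dTGR (median 11.72). All 12 treated arrays lay above the vehicle mean of 11.49 ± 0.16, although the groups overlapped. Hibch was 15.8% higher with BAY 41-8543 (log2 0.21 ± 0.06, adjusted p = 0.0287). That call ended with only the 2 groups in the fit or without any 1 of vehicle replicates 1, 4 or 5 or treated replicate 7, at adjusted p from 0.0501 to 0.0899. Against SD, Hibch was not called in vehicle dTGR (-0.18 ± 0.07, adjusted p = 0.0514) or in treated dTGR (0.03 ± 0.06, 95% interval from -0.10 to 0.16). It was called lower in vehicle dTGR under 11 of 38 alternatives, one of them the fit without vehicle replicates 6 and 7 (-0.233, adjusted p = 0.0159). Hibadh, the next enzyme of that branch, was not called in any comparison (-0.12 ± 0.06 in vehicle dTGR, with a 95% interval that ended at 0.00).

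None of the 7 branched-chain genes lower in vehicle dTGR was called between treated and vehicle dTGR. Their estimates there ran from -0.16 ± 0.09 for Bckdha to 0.11 ± 0.07 for Bckdhb. The 95% intervals reached from -0.33 to 0.02 for Bckdha, from -0.25 to 0.04 for Bcat2 and from -0.13 to 0.07 for Dbt, so a rise of these 3 genes by more than 0.07 on the log2 scale lay outside their intervals. For Bckdhb the interval ran from -0.03 to 0.24.

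Markers of cell types were set beside these values. Of the 8 cardiomyocyte markers listed, 5 were measured and 2 were lower in vehicle dTGR, Tnni3 (-0.20) and Myh6 (-0.31), while Tnnt2 (0.01) and Actn2 (0.05) were not called. The mean of the 5 relative to SD ran from -0.05 to 0.04 in SD, from -0.20 to -0.02 in vehicle dTGR and from -0.17 to 0.00 in treated dTGR. Of 6 macrophage markers, 5 were higher and 1 was lower in vehicle dTGR, and their mean ran from 0.20 to 0.95 there, from -0.06 to 0.95 in treated dTGR and from -0.31 to 0.31 in SD. Of 2 measured smooth muscle and pericyte markers 2 were higher than in SD in both dTGR groups, and of 2 measured lymphocyte markers 2 were lower in both. Of 6 fibroblast markers 1, Dcn (0.23), was higher than in SD in vehicle dTGR and a different 1, Lum (0.50), in treated dTGR. Lum (0.61) and Col3a1 (0.66) were higher and Tcf21 (-0.69) lower in treated than in vehicle dTGR. Of 3 measured endothelial markers 0 were called in vehicle dTGR against SD. Of these 3, Tie1 was higher in treated dTGR than in SD (0.31) and than in vehicle dTGR (0.33). Of 2 measured adipocyte markers 0 were called in any comparison. The erythroid gene Hba-a1 was lower than in SD (-1.04 in vehicle and -1.27 in treated dTGR), and Acta1, listed for skeletal muscle and also made in cardiomyocytes, was higher (1.29 and 1.33). The other measured skeletal muscle markers did not rise with it against SD. Ckm was lower than in SD (-0.26 in vehicle and -0.19 in treated dTGR), and Tnnt3 was not called against SD (-0.25 and 0.41). Between treated and vehicle dTGR, Tnnt3 was higher (0.66). Their part in the branched-chain differences was not tested, and in these bulk arrays fewer cells of a type and less RNA per cell cannot be told apart.

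The promoters of 3 of the branched-chain genes lower in both dTGR groups are shown as examples. Bckdhb and Ivd, also lower in both, have promoters that are not shown here. The windows are RefSeq sequences of build GRCr8, from 250 bases before to 50 bases after the annotated start, written 5′ to 3′ along the gene's strand. Capitals mark matches on either strand to CCGCCC, the GC box bound by Sp and Krüppel-like factors, or to CCACCC, the CACCC box of the same family. In Bckdk a match to each motif overlaps within 1 capital run. The Bcat2 window is chr1:105178889-105179188 on the plus strand, the Dbt window chr2:207166410-207166709 on the plus strand and the Bckdk window chr1:191945559-191945858 on the plus strand. The Bcat2 window lies inside the span of the annotated gene (chr1:105175157-105196474), so its start is not the outermost start of that gene.
Bcat2: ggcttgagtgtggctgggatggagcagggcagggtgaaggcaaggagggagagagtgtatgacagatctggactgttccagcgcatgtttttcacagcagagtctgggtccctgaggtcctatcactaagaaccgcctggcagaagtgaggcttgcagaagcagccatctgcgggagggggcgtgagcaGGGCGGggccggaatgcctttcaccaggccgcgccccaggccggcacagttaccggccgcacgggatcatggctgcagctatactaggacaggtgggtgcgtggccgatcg
Dbt: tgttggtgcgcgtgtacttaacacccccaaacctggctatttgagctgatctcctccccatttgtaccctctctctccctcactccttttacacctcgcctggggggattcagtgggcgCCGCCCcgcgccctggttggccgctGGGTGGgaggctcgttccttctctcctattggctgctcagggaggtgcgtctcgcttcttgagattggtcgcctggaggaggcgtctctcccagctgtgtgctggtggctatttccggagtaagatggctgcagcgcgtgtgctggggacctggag
Bckdk: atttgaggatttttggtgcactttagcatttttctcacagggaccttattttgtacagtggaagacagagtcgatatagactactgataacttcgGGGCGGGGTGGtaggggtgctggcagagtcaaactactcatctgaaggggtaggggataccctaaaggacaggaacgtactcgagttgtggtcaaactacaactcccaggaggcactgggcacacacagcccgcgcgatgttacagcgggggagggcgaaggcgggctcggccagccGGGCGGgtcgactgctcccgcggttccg

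A promoter was in the table for 26 of the 31 genes, 8 of the 12 lower in vehicle dTGR among them. Of these 8, 7 held a GC box (87.5%), against 12 of the other 18 (66.7%), 53.3% of the 9970 promoters of genes tested and 33.1% of all 33469 promoters. A CACCC box stood in 5 of the 8 (62.5%), 5 of the 18 (27.8%), 35.1% of genes tested and 29.4% of all. For lack of a promoter sequence, the shares of the lower genes leave out Bckdha and Pc, which had the largest differences, with Mccc2 and Pdp1. The element TNAAGGTCA of the oestrogen-related receptors was found in 0 of the 26 windows and in 0.652% of those of genes tested. A match is a description of the letters in this window and does not show a site in use. Klf15, the Krüppel-like factor known in mice to raise branched-chain catabolic genes, was not called in any comparison (0.05 ± 0.19 in vehicle dTGR and -0.20 ± 0.18 in treated dTGR against SD, and -0.25 ± 0.18 between treated and vehicle dTGR). Without vehicle replicates 6 and 7, Klf15 was lower in treated than in vehicle dTGR (-0.531, adjusted p = 0.0123).

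At the entry of pyruvate, the carboxylase and a phosphatase were lower in vehicle dTGR and the dehydrogenase subunits were not called. Of 7 measured genes, 2 were lower in vehicle dTGR and 1 in treated dTGR, and 0 were called between the dTGR groups, with a median of -0.132 in vehicle dTGR. These shares, 28.6% and 14.3%, lay near the 23.8% and 17.4% of all genes called either way. The genes called were all lower, where 11.7% and 7.87% of all genes were, and the shares rest on 2 genes and 1 gene.

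Pc encodes pyruvate carboxylase, which refills the citric acid cycle with oxaloacetate. It ran from 10.87 to 11.15 in SD (median 10.94), from 10.17 to 10.54 in vehicle dTGR (median 10.33) and from 9.96 to 10.42 in treated dTGR (median 10.34). Every dTGR array was below every SD array, with a gap between the lowest SD and the highest dTGR array wider than the spread within SD. The difference was -0.64 ± 0.07 in vehicle dTGR (adjusted p = 1.12e-07) and -0.69 ± 0.07 in treated dTGR (adjusted p = 6.39e-09). Between the dTGR groups it was -0.05 ± 0.07, with a 95% interval from -0.18 to 0.09.

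**Figure D3:**
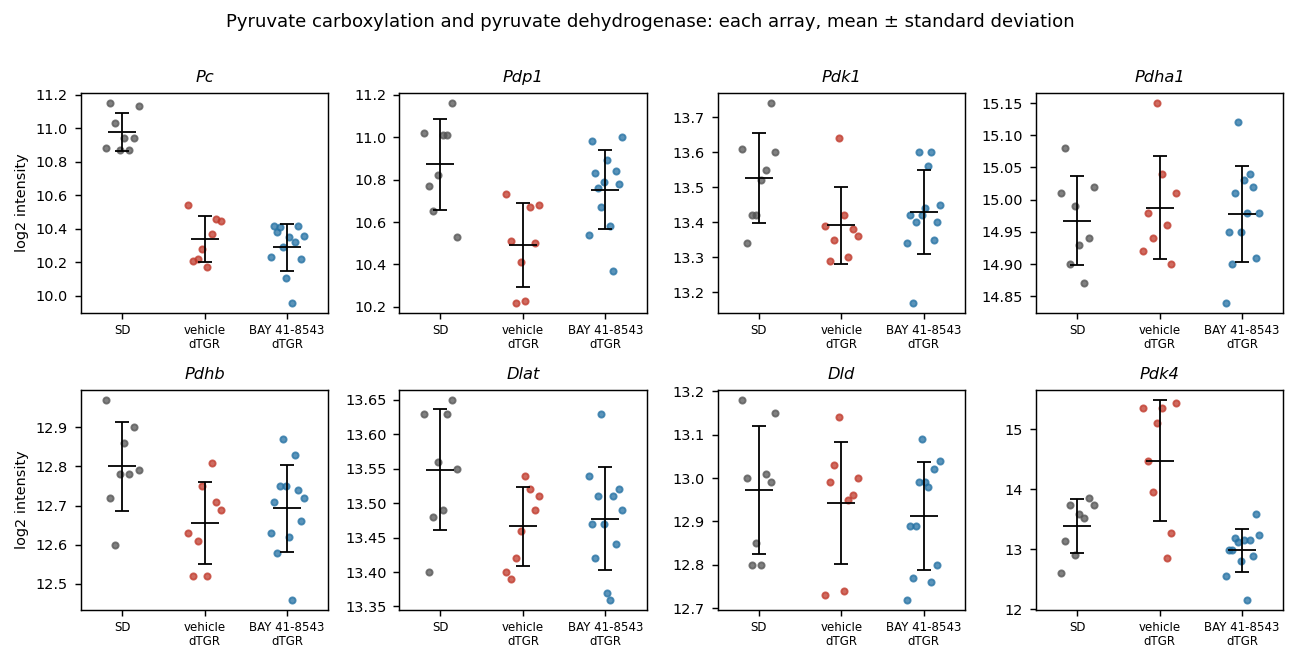
Log2 intensity (vertical axes, scaled per gene) of Pc, the measured pyruvate dehydrogenase subunits, their regulators and Pdk4 in each array, with group mean and standard deviation. Pc is split cleanly between SD (10.87 to 11.15) and both dTGR groups, while Pdha1, Dlat and Dld overlap in all 3 groups and Pdk4 is spread from 12.86 to 15.43 within vehicle dTGR.

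Pdp1 encodes a catalytic subunit of the phosphatase that switches pyruvate dehydrogenase on. It ran from 10.53 to 11.16 in SD (median 10.91), from 10.22 to 10.73 in vehicle dTGR (median 10.51) and from 10.37 to 11 in treated dTGR (median 10.79). Vehicle arrays were the lowest of the groups, with 5 of 8 below every SD array. The difference between vehicle dTGR and SD was -0.38 ± 0.10 (adjusted p = 0.00393). With BAY 41-8543, 11 of 12 arrays lay above the vehicle mean, but the difference of 0.26 ± 0.09 was not called (adjusted p = 0.0594). It was called under 8 of 38 alternatives, at adjusted p from 0.0265 to 0.05, one of them the fit without vehicle replicates 6 and 7 (0.289, adjusted p = 0.0372). Against SD, treated dTGR differed by -0.12 ± 0.09 (adjusted p = 0.415).

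The subunits of the dehydrogenase itself were not called in any comparison. In vehicle dTGR against SD, the E1 alpha subunit gene Pdha1 differed by 0.02 ± 0.04, with a 95% interval from -0.07 to 0.11, and the E2 core gene Dlat by -0.08 ± 0.04, with one from -0.17 to 0.01. Pdhb, the E1 beta subunit, differed by -0.14 ± 0.06 (adjusted p = 0.0713). It was called lower without SD replicate 3, without vehicle replicate 6, without vehicle replicates 6 and 7 together or after quantile normalization again, at adjusted p from 0.0299 to 0.0377. Without replicates 6 and 7 together the Pdhb difference was -0.179 (adjusted p = 0.0299). Pdk1, a kinase that inhibits the complex, differed by -0.13 ± 0.06 (adjusted p = 0.115) and was called without vehicle replicate 4 (-0.167, adjusted p = 0.0386), whose level of 13.64 stood above the other 7 vehicle arrays (13.29 to 13.42). In treated dTGR against SD these 4 genes differed by 0.01 ± 0.04, -0.07 ± 0.04, -0.11 ± 0.05 and -0.10 ± 0.06, in the order in which they are named here.

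Among regulators outside the 31 genes, Pdk4, the kinase that fasting and fatty acids induce, ran from 12.60 to 13.86 in SD (median 13.55), from 12.86 to 15.43 in vehicle dTGR (median 14.79) and from 12.16 to 13.59 in treated dTGR (median 13.05). Its 2 lowest vehicle arrays were replicates 6 (12.86) and 7 (13.27), inside the SD range. Against vehicle, Pdk4 was lower with BAY 41-8543 by a log2 difference of -1.50 ± 0.26 (adjusted p = 0.000659), and against SD it was higher in vehicle dTGR by 1.09 ± 0.28 (adjusted p = 0.00427). In treated dTGR against SD Pdk4 was not called (-0.40 ± 0.26, adjusted p = 0.332), although 11 of 12 arrays lay below the SD mean. Pdpr, the regulatory subunit of the same phosphatase as Pdp1, was lower in vehicle dTGR (-0.44 ± 0.06, adjusted p = 1.11e-06) and in treated dTGR (-0.29 ± 0.05, adjusted p = 0.000193), with every dTGR array below every SD array. Between treated and vehicle dTGR Pdpr differed by 0.16 ± 0.05 (adjusted p = 0.0607), and it was called under 8 of 38 alternatives, one of them the fit without vehicle replicates 6 and 7 (0.181, adjusted p = 0.0262). Pdk3, a further kinase gene, was higher in treated dTGR than in SD (0.42 ± 0.13, adjusted p = 0.0231). That call ended without SD replicates 1 or 7, at adjusted p of 0.0751 and 0.0535.

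The 8 measured citric acid cycle genes of the list differed from SD by at most 0.16 in size on the log2 scale in both dTGR groups. Of the 8, 1 was lower in vehicle dTGR, 1 in treated dTGR and 0 between the dTGR groups, with a median difference of -0.059 in vehicle dTGR and a range from -0.159 to 0.082. The 12.5% called in vehicle dTGR rests on 1 gene, which was lower. Of all genes, 23.8% were called there either way and 11.7% lower. Outside the list, Sdha, the flavoprotein subunit of succinate dehydrogenase, was lower than in SD by -0.16 ± 0.05 in vehicle dTGR (adjusted p = 0.00849) and by -0.20 ± 0.04 in treated dTGR (adjusted p = 0.00108), and it was named after its values were seen. Dlst, the E2 core of oxoglutarate dehydrogenase, was the lower gene in vehicle dTGR (-0.16 ± 0.05, adjusted p = 0.028), where 7 of 8 arrays lay below the SD mean and replicate 7 above it. That call ended when SD replicate 1 or 7 was left out, or vehicle replicate 1, 2 or 5, with only the 2 groups in the fit or with no intensity trend, at adjusted p from 0.0515 to 0.0638. With BAY 41-8543, Dlst differed from vehicle by 0.11 ± 0.05 (adjusted p = 0.159), and it was called without vehicle replicate 7 (0.15, adjusted p = 0.0221) or without replicates 6 and 7 (0.164, adjusted p = 0.0133).

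Idh3g, the gamma subunit of the NAD-dependent isocitrate dehydrogenase, was the lower gene in treated dTGR (-0.12 ± 0.03 against SD, adjusted p = 0.0153), with 12 of 12 arrays below the SD mean. It lost that call with no intensity trend (adjusted p = 0.0505). In vehicle dTGR Idh3g was not called (-0.06 ± 0.04), and its alpha and beta partners Idh3a (-0.04 ± 0.06) and Idh3b (-0.06 ± 0.04) were not called there either. Citrate synthase Cs, the entry step of the cycle, ran from 15.38 to 15.53 in SD, from 15.30 to 15.44 in vehicle dTGR and from 15.15 to 15.51 in treated dTGR, and its differences from SD were -0.05 ± 0.04 and -0.04 ± 0.04. The NADP-dependent enzyme Idh2 (-0.06 ± 0.04) and the succinyl-CoA ligase subunits Suclg1 (0.08 ± 0.06) and Sucla2 (-0.14 ± 0.06, adjusted p = 0.117) were not called in vehicle dTGR. Sucla2 was called there under 2 alternatives, without vehicle replicate 4 and after quantile normalization again.

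The malate-aspartate shuttle, which carries the electrons of cytosolic NADH into the mitochondrion, had 1 of 4 genes lower in each comparison with SD and 0 called between the dTGR groups. That share, 25%, rests on 1 gene, where 23.8% of all genes were called in vehicle dTGR and 17.4% in treated dTGR. The gene was Mdh1, the cytosolic malate dehydrogenase. It ran from 15.17 to 15.37 in SD, from 15.00 to 15.22 in vehicle dTGR and from 15.01 to 15.24 in treated dTGR. All 8 vehicle and all 12 treated arrays lay below the SD mean, by -0.15 ± 0.04 (adjusted p = 0.00829) and -0.11 ± 0.04 (adjusted p = 0.0402). The second call ended when SD replicate 1, 3, 4, 5, 6 or 7 was left out, when treated replicate 1, 5, 8, 9, 11 or 12 was, with either other normalization or with no intensity trend, at adjusted p from 0.0524 to 0.097. The mitochondrial partner Mdh2 (0.01 ± 0.04) and the aspartate aminotransferases Got1 (0.04 ± 0.05) and Got2 (-0.05 ± 0.07) were not called in vehicle dTGR. Got2 ran from 12.69 to 13.41 in treated dTGR, where replicate 9 was the lowest, and its difference from SD of -0.14 ± 0.06 was not called (adjusted p = 0.141). The shuttle's measured carriers, outside the 31 genes and named after their values were seen, were both lower in vehicle dTGR. The oxoglutarate and malate carrier Slc25a11 differed by -0.15 ± 0.04 (adjusted p = 0.00583) and the aspartate and glutamate carrier Slc25a12 by -0.23 ± 0.05 (adjusted p = 0.00214). In treated dTGR against SD Slc25a12 was lower (-0.24 ± 0.05, adjusted p = 0.00071) and Slc25a11 was not called (-0.08 ± 0.04, adjusted p = 0.125), though it was without SD replicate 5 (adjusted p = 0.0402).

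Of the 3 ketone genes, 1 was lower in both comparisons with SD and 0 were called between the dTGR groups, a count too small to set against the 23.8% and 17.4% of all genes called. Acat1, mitochondrial acetyl-CoA acetyltransferase, splits acetoacetyl-CoA and also serves the last step of isoleucine breakdown. It ran from 14.54 to 14.78 in SD (median 14.60), from 14.31 to 14.41 in vehicle dTGR (median 14.37) and from 14.23 to 14.50 in treated dTGR (median 14.36). All 20 dTGR arrays were below all 8 SD arrays. The differences were -0.26 ± 0.04 (adjusted p = 2.4e-05) and -0.25 ± 0.04 (adjusted p = 2.44e-05). Oxct1, the transferase that commits ketone bodies to oxidation, has 2 probes, which gave 0.05 and 0.06 in vehicle dTGR. With the brighter probe, Oxct1 differed from SD by 0.05 ± 0.05, with a 95% interval from -0.04 to 0.15, and by -0.01 ± 0.04 in treated dTGR.

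Bdh1, hydroxybutyrate dehydrogenase, takes the first step from hydroxybutyrate. It ran from 11.90 to 13.31 in SD (median 13.03), from 12.73 to 13.50 in vehicle dTGR (median 13.27) and from 12.85 to 13.25 in treated dTGR (median 13.07). The lowest value belonged to SD replicate 8, and the other 7 SD arrays lay between 12.77 and 13.31. Bdh1 was not called in vehicle dTGR (0.31 ± 0.13, adjusted p = 0.0785), and without SD replicate 8 its estimate was 0.168 (adjusted p = 0.205). It was called higher without SD replicate 7 (0.368, adjusted p = 0.0389) or without vehicle replicate 1 (0.381, adjusted p = 0.0275).

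**Figure D4:**
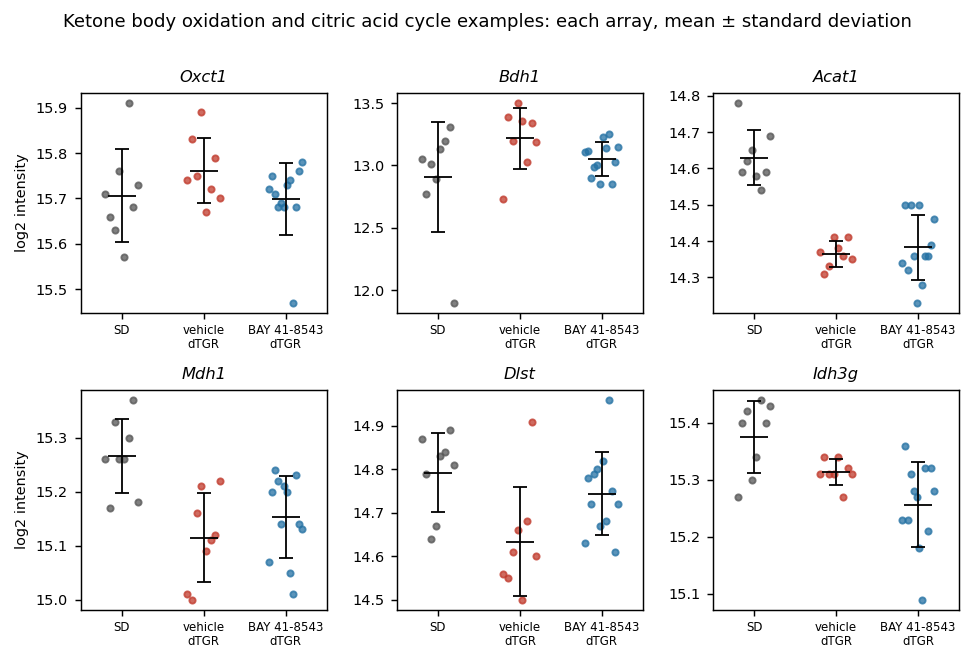
Log2 intensity (vertical axes, scaled per gene) of the 3 ketone genes and of Mdh1, Dlst and Idh3g in each array, with group mean and standard deviation. Acat1 has all dTGR arrays below the SD arrays, and 1 SD array at 11.90 stands below the others for Bdh1.

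Of the 31 genes, 7 had every vehicle array below every SD array, Pc, Acat1, Bcat2, Bckdha, Bckdk, Dbt and Mccc2, where 2.11% of all genes did. In treated dTGR 6 had this pattern, the same without Bckdk, where 1.19% of all genes did.

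**Figure D5:**
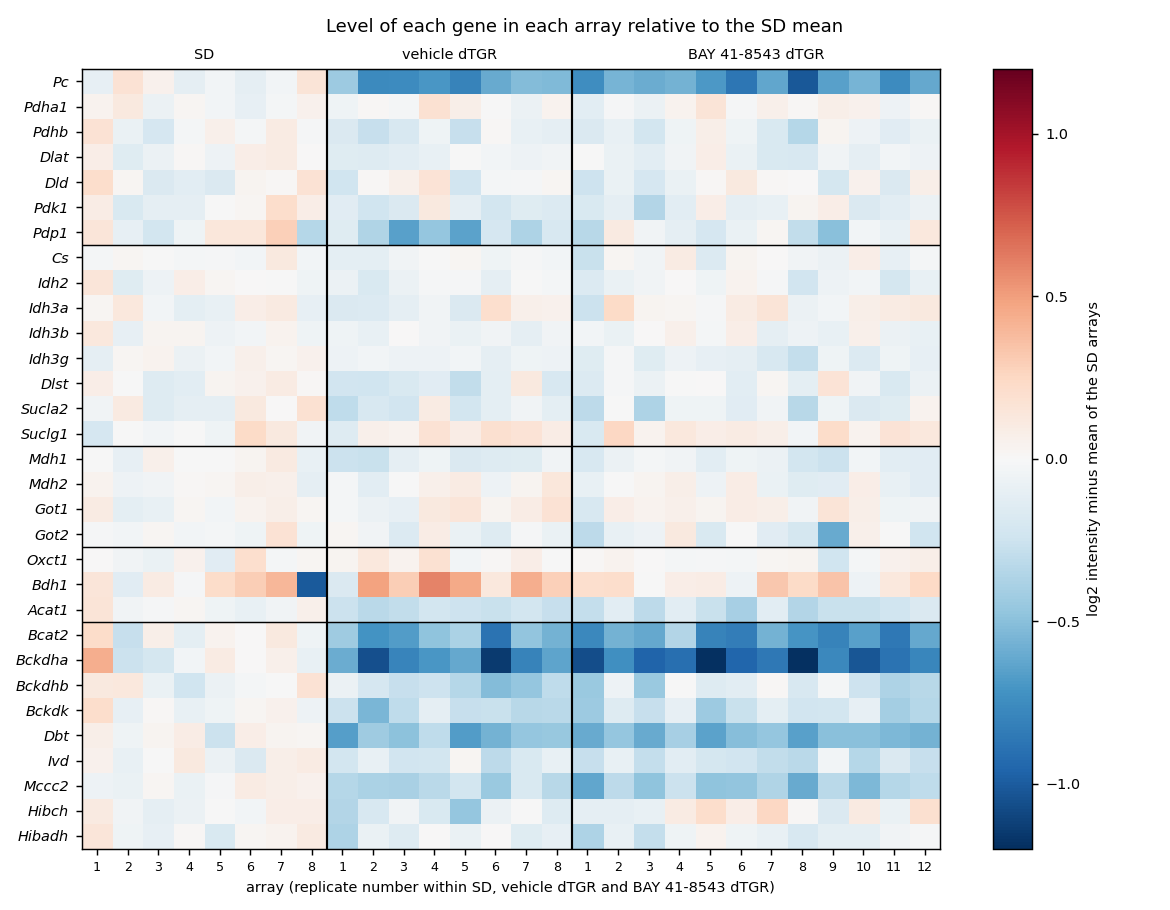
Level of each of the 31 genes (rows, grouped by pathway) in each of the 28 arrays (columns) as log2 intensity minus the mean of the SD arrays, with blue for lower and red for higher. Pc, Bcat2, Bckdha and Dbt are blue across all 20 dTGR arrays, vehicle replicates 6 and 7 among them, and the citric acid cycle rows stay pale.

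Of 54 other genes listed for these pathways, 41 were measured. In vehicle dTGR 14 were lower and 2 higher than in SD, in treated dTGR 10 were lower and 4 higher than in SD, and between the dTGR groups 1 was higher and 1 lower. These make up 39.0%, 34.1% and 4.88% of the 41, where 23.8%, 17.4% and 9.79% of all genes were called. Among 10 measured enzymes and carriers of branched-chain catabolism, 3 were lower in vehicle dTGR and 5 in treated dTGR, and 0 were called between the dTGR groups (1, Ppm1k, had an unadjusted p under 0.05 by limma). The 30% in vehicle dTGR lay near the 23.8% of all genes called either way, and above the 11.7% called lower. The 50% in treated dTGR stood beside 17.4% called either way and 7.87% called lower. The 3 lower in vehicle dTGR belong to the valine and propionyl-CoA end of the pathway. Mmut, methylmalonyl-CoA mutase, was lower by -0.32 ± 0.06 (adjusted p = 0.000138) in vehicle dTGR and by -0.36 ± 0.05 (adjusted p = 1.1e-05) in treated dTGR. Aldh6a1, methylmalonate semialdehyde dehydrogenase, was lower by -0.31 ± 0.05 in both (adjusted p = 6.19e-05 and 2.34e-05). Pccb, the beta subunit of propionyl-CoA carboxylase, was lower by -0.27 ± 0.08 (adjusted p = 0.00707) and -0.36 ± 0.07 (adjusted p = 0.000246).

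Of 7 measured transcriptional regulators of mitochondrial metabolism, 5 were lower in vehicle dTGR than in SD (71.4%, where 23.8% of all genes were called, 11.7% lower). The list was chosen with earlier results of these data known, so that share is a description and not a test. In treated dTGR 0 were called against SD, where 17.4% of all genes were. With BAY 41-8543, 1 was higher than with vehicle (14.3%, where 9.79% of all genes were called). That gene was Ppara, the fatty acid receptor that drives oxidation genes. It ran from 12.98 to 13.32 in SD (median 13.17), from 12.26 to 12.95 in vehicle dTGR (median 12.80) and from 12.96 to 13.24 in treated dTGR (median 13.06). Every vehicle array was below every SD array. Ppara was lower in vehicle dTGR by -0.46 ± 0.08 (adjusted p = 3.38e-05) and higher with BAY 41-8543 than with vehicle by 0.37 ± 0.07 (adjusted p = 0.00125). Also lower in vehicle dTGR were the coactivators Ppargc1b (-0.80 ± 0.20, adjusted p = 0.00262) and Ppargc1a (-0.33 ± 0.11, adjusted p = 0.0228, a call lost with only the 2 groups or without vehicle replicate 5, at adjusted p = 0.0704 and 0.0553) and the oestrogen-related receptors Esrra (-0.40 ± 0.11, adjusted p = 0.00677) and Esrrb (-0.44 ± 0.14, adjusted p = 0.0169). Between treated and vehicle dTGR these 4 genes were not called, with differences of 0.52 ± 0.18 for Ppargc1b (adjusted p = 0.0594), 0.28 ± 0.10 for Ppargc1a (adjusted p = 0.066), 0.23 ± 0.10 for Esrra and 0.24 ± 0.12 for Esrrb. For the first 3 the call changed when single arrays were left out. Ppargc1b ran from 10.05 to 12.01 in vehicle dTGR, with replicates 6 (11.88) and 7 (12.01) near its top, and without both it was higher in treated dTGR by 0.794 (adjusted p = 0.000434). It was also called without vehicle replicate 3, 6 or 7 or treated replicate 3, at adjusted p from 0.00895 to 0.0465. Ppargc1a was called without vehicle replicates 6 and 7 (0.379, adjusted p = 0.00595) and without vehicle replicate 3, 6 or 7 or treated replicate 9, at adjusted p from 0.0223 to 0.0408. Esrra was called without vehicle replicate 5 (0.317, adjusted p = 0.0257). In treated dTGR against SD, Ppargc1b differed by -0.275 ± 0.18 (adjusted p = 0.337), with 9 of 12 arrays below every SD array. It was called lower there with only the 2 groups in the fit (adjusted p = 0.0116).

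The lipoyl group that Dlat, Dbt and Dlst carry is made and attached by dedicated enzymes, 3 of which were measured. Lipt1 was lower in vehicle dTGR (-0.44 ± 0.15, adjusted p = 0.0273) and in treated dTGR (-0.47 ± 0.13, adjusted p = 0.0127), and Lipt2 was lower in vehicle dTGR (-0.41 ± 0.13, adjusted p = 0.0238). Lipt2 was not called in treated dTGR against SD (-0.19 ± 0.12, adjusted p = 0.321). The third gene, Lias, was not called against SD in vehicle dTGR (-0.04 ± 0.12) or treated dTGR (0.02 ± 0.11). The vehicle call of Lipt1 ended when SD replicate 5 or 6 was left out, or vehicle replicate 2, 4 or 8, and with only the 2 groups, at adjusted p from 0.0516 to 0.067. That of Lipt2 ended without SD replicate 7, at adjusted p = 0.0674. Among carriers and enzymes of citrate and malate outside the 31 genes, the citrate carrier Slc25a1 (0.53 ± 0.13, adjusted p = 0.00393) and the malic enzyme Me2 (0.41 ± 0.10, adjusted p = 0.00385) were higher in treated dTGR than in SD, and neither was called in vehicle dTGR (0.30 ± 0.14 and 0.27 ± 0.11), though Slc25a1 was without SD replicate 4 and Me2 without SD replicate 5 (adjusted p = 0.0368 and 0.0186). The cytosolic malic enzyme Me1, named after its values were seen, was lower in treated dTGR than in SD (-0.17 ± 0.06, adjusted p = 0.0459), a call lost under 20 of 38 alternatives. Acly, ATP citrate lyase, was not called in any comparison (0.15 ± 0.10 in vehicle dTGR and -0.08 ± 0.09 in treated dTGR against SD).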

How the data were processed

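Per the submitters' processing notes, the arrays were normalized with RMA, and no version of it is named there. The intensity that the authors deposited for each probe is linear, where RMA output is normally log2, and how it was scaled is not stated. Its log2 was used throughout. Array medians of intensity ran from 99.5 to 107, and the precision of a group is limited by its number of arrays.

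Of 36685 probes, 14824 carry 1 gene symbol in the platform annotation. Probes with a mean log2 value above the 30th percentile (5.65) were kept, and the brightest stood for each gene, which gave 11493 genes. All 31 measured members passed. The tests used limma 3.58.1 (R 4.3.3), with a mean per group over all 28 arrays and an intensity trend, two-sided, adjusted by Benjamini-Hochberg over the 11493 genes. The script was tested on simulated data.

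Every measured member could be named. Values in each group's arrays were planned for up to 8 called members per comparison with the largest differences. Other genes were named from a list, up to 8 called per comparison, with Pdk4, Ppm1k and Klf15. Sdha, Slc25a11, Slc25a12, Me1, Acly, Auh and Ppargc1a were named, and the array ranges of Cs, Mdh1, Got2, Bdh1 and Ppargc1b given, after their values were seen. Members and lists were chosen with earlier results of these data known. No batch is given in the labels. The numbers in the animals' names form a separate block for each group, so group and block cannot be told apart. The labels say no more about the arrays of a group than that they are separate samples with separate animal numbers. The p-values therefore set a difference against the spread between these samples.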

Additional observations from a re-analysis of the deposited data

Results flagged for a closer look

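In 62 groups of 8 arrays (the SD and vehicle dTGR arrays of the 31 genes), 1 array stood apart from the other 7 in 8 cases, judged by its gap to the nearest array as a share of the group's range; chance gives this in about 1 of 20 groups. Log2 intensity was 13.64 for Pdk1 in vehicle replicate 4 (others 13.29 to 13.42) and 15.53 for Cs in SD replicate 7 (others 15.38 to 15.44). It was 14.91 for Dlst in vehicle replicate 7 (others 14.50 to 14.68) and 13.37 for Suclg1 in vehicle replicate 1 (others 13.57 to 13.72). It was 13.47 for Got2 in SD replicate 7 (others 13.24 to 13.32) and 11.90 for Bdh1 in SD replicate 8 (others 12.77 to 13.31). It was 13.89 for Dbt in SD replicate 5 (others 14.10 to 14.24) and 13.77 for Hibadh in vehicle replicate 1 (others 13.98 to 14.14). The Dbt difference was called without SD replicate 5 as well.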

How the results depend on the processing

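Under 38 alternatives (median centring, quantile normalization again, no filter or a filter at the median, the mean of a gene's probes, only the 2 groups compared, no intensity trend, a robust prior, array weights, vehicle replicates 6 and 7 left out together, and each array left out in turn), no called difference changed direction, and 18 of the 24 called differences of the 31 genes kept their call throughout. The number called in vehicle dTGR against SD ran from 11 to 16, and in treated dTGR against SD from 8 to 11. Between treated and vehicle dTGR the number, 1 at first, was 2 after quantile normalization again, 2 with the filter at the median, 3 without vehicle replicates 6 and 7, and 0 with only the 2 groups in the limma fit (4 at an unadjusted p under 0.05), and it ran from 0 to 2 with 1 array left out. The cause was not tested. No paired analysis was possible because the groups share no animal numbers. The arrays carry no measure of background, and with 8 to 12 arrays a group the smallest called difference among the 31 genes was -0.11, for Mdh1 in treated dTGR.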
